A study of Sus scrofa with 8 samples.

Results

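The data below compare lung tissue of Duroc pigs raised at high altitude (DH) with that of Duroc pigs raised at low altitude (DL), on 4 of the 8 arrays of the study. A probe was included where it was not a control and where the scanner software had marked its signal as well above background on at least 1 of these 4 arrays, which held for 29964 of the 43603 probes of the array. Of these, 2850 were designed against a RefSeq transcript (3239 on the array) and 27114 against other sequences, mostly ESTs and predicted transcripts (40364 on the array). The 2 kinds of probes are described apart, since only RefSeq-target probes could be named through an accession, for 2359 probes of 1676 genes.

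The study used a migrant design with Tibetan pigs (T), a breed of the plateau, and Duroc pigs (D), a commercial lowland breed, at 3500 m (H) and at 40 m (L). All pigs were females harvested at 6 months of age, and each group (TH, TL, DH and DL) had 2 animals, each hybridized singly to its own 1-color Agilent array. DL pigs were Duroc pigs that had stayed at the lowland farm, and DH pigs were Duroc pigs taken from there to the highland farm at 1 month of age. TH pigs had stayed at the highland farm, and TL pigs were Tibetan pigs moved down at the same age. The farms lay in different provinces, so high and low altitude also differed in site.

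The files showed a further split. The DL and TH arrays were on one slide and the DH and TL arrays, which are those of the moved pigs, on the other. In DH against DL, altitude, site, the move and the slide cannot be told apart. The difference between TH and TL ran across the slides and across the move in the opposite sense, and was used below for values in which slide and move balance. Spots of the same probe on 1 array differed by a median of 0.054 log2 units in DL (41 probes with 5 spots) and by 0.0552 in DH (40 probes). Between the 2 arrays of a group such spots differed by 0.048 and 0.0509, so p-values measured a spread no larger than that within an array, which may be technical. Between 26465 and 28134 probes were well above background on a Duroc array, and no spot was saturated. On the TL arrays there were 31722 and 31641 such probes, and on the TH arrays 29316 and 27797. The TL arrays were also brighter before normalization, with a median raw signal of 324 and 333.5, against 207.5 to 230 on the others.

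Oxygen tension is read in cells by the hypoxia-inducible factors, whose alpha subunits HIF1A and EPAS1 are degraded in normal oxygen after hydroxylation by the EGLN enzymes and binding by VHL. When oxygen falls, they accumulate with little need for new mRNA and switch on genes of glycolysis, angiogenesis and vascular tone. In lung, low oxygen also constricts the small arteries, and breeds brought from lowland to altitude can develop high pulmonary pressure. The lung in addition holds a large population of resident macrophages, lymphocytes and mast cells at the air surface.

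As a check of the tissue, all 4 measured surfactant markers of alveolar type II cells (SFTPA1, SFTPB, SFTPC and SFTPD), all 4 of alveolar type I cells (AGER, HOPX, AQP5 and CAV1) and PECAM1 and CDH5 of endothelium were well above background on all 4 Duroc arrays. The summed level of the alveolar type II markers was 19.07 to 19.10 log2 units in DL and 19.20 to 19.31 in DH. That of the T cell markers CD3D, CD3E, CD3G and CD2 was 13.53 to 13.54 in DL and 13.96 to 13.99 in DH. RefSeq-target probes measured none of the defining markers of ciliated cells, neutrophils or erythroid cells. In whole lung, fewer cells of a type and less RNA per cell cannot be told apart.

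Most transcripts differed little between the altitudes. The median size of the difference between DH and DL was 0.287 log2 units over RefSeq-target probes and 0.374 over other probes, and 43.1% of the 1676 genes lay within 0.25. The middle 90% of RefSeq-target probes lay between -0.965 (5th percentile) and 0.875 (95th percentile), and those of other probes between -1.158 and 1.362. The spread between replicates was smaller still, with a median standard error of 0.038 for RefSeq-target probes and 0.05 for other probes. In this fit 67.7% of all 29964 probes passed an FDR of 0.05 in limma, 9922 higher and 10368 lower in DH. The arrays of DH and DL did not overlap for 84.5% of probes. A transcript was therefore called only where it passed this FDR and differed at least 2-fold, that is by 1 log2 unit.

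With this rule, 6.63% of all probes were called higher in DH and 3.94% lower. Of the RefSeq-target probes, 193 of 2850 (6.77%) were called, 84 higher in DH (2.95%) and 109 lower (3.82%). Of the other probes, 2976 of 27114 (11.0%) were called, 1903 higher (7.02%) and 1073 lower (3.96%). RefSeq-target probes thus held more lower than higher calls, 43.5% being higher, whereas 63.9% of the calls of other probes were higher. The balance of RefSeq-target calls turned with the arrays scaled to their 75th percentile, which gave 110 higher and 105 lower (51.2% higher), and with slide as a block (76.9% higher). Differences of 4-fold or more were found for 41 RefSeq-target probes (19 higher and 22 lower) and 597 other probes (371 and 226). The share called fell with brightness in both kinds. With all probes cut into 5 equal bins by mean level, 19.0% of RefSeq-target and 20.8% of other probes were called in the dimmest bin, against 1.39% and 1.45% in the brightest. At the same brightness the shares of the 2 kinds lay close to each other, and 1080 of the 2850 RefSeq-target probes were in the brightest bin. Among other probes, the share ranged from 5.13% of 4305 probes for Ensembl transcripts to 12.9% of 8929 for assembled tentative consensus sequences. Over the 1676 genes, each taken at its brightest RefSeq-target probe, 56 were called higher (3.34%) and 68 lower (4.06%), with a median difference of -0.01.

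Part of the calls came from probes detected in one group only. Of the 29964 probes, 25090 were well above background on all 4 arrays, and 1893 of them (7.54%) were called. A further 669 probes were above background on both DH arrays and on no DL array, and 473 of them were called. Another 426 were above background on both DL arrays and no DH array, and 252 of them were called. Probes above background on 1 of the 4 arrays, which the rule just admits (2266), had a median level of 4.95 log2 units, and the 13639 probes that it just leaves out a median of 3.46.

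Among RefSeq-target probes well above background on all 4 arrays, the largest increase in DH was that of ALOX15, a lipoxygenase that oxidizes arachidonic acid. The enzyme is made by eosinophils, airway epithelium and alternatively activated macrophages. ALOX15 measured 9.80 and 9.82 on the DL arrays and 12.77 and 12.84 on the DH arrays, a rise of 2.997 log2 units (SE 0.035) or 7.98-fold (limma, adjusted p = 5.79e-06). ZP3, a zona pellucida glycoprotein known from the egg coat, measured 6.09 and 6.12 in DL and 8.95 and 9.04 in DH, 7.40-fold higher (adjusted p = 8.17e-06). PNPLA3, a lipase of lipid droplets, measured 6.04 and 6.45 in DL and 8.90 and 8.80 in DH, but the second PNPLA3 probe differed by -0.01. In each of these the DH arrays stood far above both DL arrays and the arrays of a group lay within 0.41 log2 units.

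Seminal plasma protein PSP-I, a spermadhesin, rose on both of its probes. On the probe that differed more it measured 7.81 and 7.84 in DL and 10.01 and 10.10 in DH, a 4.69-fold rise (adjusted p = 4.75e-05). FABP1, the fatty acid binding protein of liver and gut, measured 8.31 and 8.33 in DL and 10.20 and 10.24 in DH and rose 3.74-fold. RGS5, a regulator of G protein signaling found in pericytes, measured 8.34 and 8.56 in DL and 10.29 and 10.27 in DH and rose 3.56-fold. These 3 genes were higher in TH than in TL too, by 2.04, 1.68 and 4.42 log2 units.

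BPIFA1, a secreted defense protein of the upper airway lining, rose on both of its probes, from 8.86 and 8.71 in DL to 10.46 and 10.53 in DH on the brighter and from 8.08 and 8.12 to 9.89 and 9.80 on the dimmer. GZMB, the granzyme of cytotoxic T and NK cells, rose from 12.67 and 12.72 to 14.36 and 14.48, 3.31-fold (adjusted p = 1.36e-05). GNMT, which methylates glycine in the methionine cycle, rose from 9.06 and 9.09 to 10.76 and 10.69. SMPX, a small protein of striated muscle, rose from 8.54 and 8.48 to 10.17 and 10.14. STMN2, a regulator of microtubules in neurons, rose from 6.75 and 6.61 to 8.12 and 8.29, and its other RefSeq-target probes differed by 0.68 and 0.46. LOC574051 rose from 10.72 and 10.77 to 12.44 and 12.43. None of these groups of arrays overlapped, as the choice of genes required, and over the 12 genes the adjusted p ran from 5.79e-06 to 6.2e-05.

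Among the same kind of probes, the largest decreases were those of LOC396867 and of CHRM1, the M1 muscarinic acetylcholine receptor. LOC396867 measured 8.93 and 8.83 in DL and 6.05 and 5.91 in DH and fell 7.49-fold (limma, adjusted p = 8.18e-06). CHRM1 measured 13.08 and 13.07 in DL and 10.35 and 10.26 in DH, a fall of 2.77 log2 units (SE 0.042, 6.81-fold, adjusted p = 6.62e-06). CELA2A, a pancreatic elastase, measured 9.95 and 9.91 in DL and 7.58 and 7.49 in DH, 5.26-fold lower in DH. PON1, the paraoxonase of high density lipoprotein, measured 11.34 and 11.37 in DL and 9.28 and 9.28 in DH, 4.21-fold lower. In these 4 genes the arrays of a group lay within 0.14 log2 units of each other. DH lay below DL throughout, as the choice of genes required.

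PRKG1, the cGMP-dependent kinase through which nitric oxide relaxes smooth muscle, fell from 9.90 and 10.13 in DL to 7.90 and 7.89 in DH, 4.35-fold. TRAF6, the ubiquitin ligase downstream of toll-like and interleukin 1 receptors, fell from 12.38 and 12.42 to 10.34 and 10.35 (4.16-fold, adjusted p = 5.79e-06), and its second probe by 2.59. NDN, the imprinted growth suppressor necdin, fell from 9.58 and 9.55 to 7.45 and 7.51. MGAT4C, a glycosyltransferase, fell from 8.71 and 8.79 to 6.88 and 6.75. No DH array of these genes reached the level of a DL array, as the choice of genes required. Over the 12 decreases the adjusted p ran from 5.79e-06 to 6.34e-04.

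Some genes were above background in only one of the groups, and their folds are lower bounds, set against the lowest signal that counted as well above background on the dim arrays. CA3, a carbonic anhydrase abundant in muscle and fat, measured 3.75 and 3.78 in DL and 8.60 and 8.60 in DH, was above background on no DL array and was at least 7.52-fold higher in DH (limma, adjusted p = 7.18e-06). TYR, the tyrosinase of melanin synthesis, measured 2.98 and 3.01 in DL and 6.80 and 6.54 in DH and was at least 1.97-fold higher. DAO, the D-amino acid oxidase, measured 3.60 and 4.95 in DL and 7.02 and 7.17 in DH (at least 2.65-fold, adjusted p = 0.0335), and without DL replicate 1 (difference 2.15), either DH replicate or either TH replicate it was no longer called. INA, a neurofilament protein, measured 2.96 and 3.41 in DL and 4.65 and 6.81 in DH and was above background on 1 DH array only, and without either DL replicate or either TL replicate it was no longer called. Each of the last 2 calls was thus lost when single arrays were left out.

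In the other direction, HRH4, the histamine receptor of eosinophils and mast cells, measured 7.36 and 7.42 in DL and 3.24 and 4.07 in DH, at least 3.40-fold lower in DH (limma, adjusted p = 2.11e-04). It was lower in TH than in TL as well, and TH minus TL was -2.35 log2 units. ZNF711, a zinc finger gene of the X chromosome, measured 7.63 and 6.13 in DL and 2.95 and 4.41 in DH (at least 2.39-fold), while a brighter probe differed by -0.96. OXTR, the oxytocin receptor, measured 5.57 and 7.28 in DL and 3.08 and 3.74 in DH (at least 1.74-fold) and was above background on 1 DL array. Replicates of these dim probes differed by up to 1.71 log2 units within a group, far more than those of the genes above.

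Several mast cell genes fell in DH. KIT, the receptor of stem cell factor on which mast cells depend, measured 10.54 and 10.57 in DL and 8.41 and 8.30 in DH on the dimmer probe and 14.72 and 14.75 in DL and 13.11 and 13.12 in DH on the brighter, falls of 4.59-fold and 3.08-fold (limma, adjusted p = 1.17e-05 and 6.15e-06). MCT7, a mast cell tryptase, measured 10.72 and 10.73 in DL and 8.69 and 8.63 in DH (4.19-fold lower). MS4A2, the beta chain of the high-affinity IgE receptor, measured 9.16 and 9.12 in DL and 7.50 and 7.60 in DH (3.01-fold lower). All DH arrays lay below all DL arrays at these genes, and the groups were apart at each of the 3169 called probes. MCT7 was not in the mast cell and eosinophil list. Of its 5 measured members, 2 fell and none rose (over all genes 4.06% fell and 3.34% rose). The median of the list was -0.515 log2 units (all genes -0.01). GATA2, a transcription factor of mast cells, differed by -0.51, HDC, which makes histamine, by 0.21, and CCR3, the eotaxin receptor, by 0.41. Its ligand CCL26 rose from 9.69 and 9.64 to 10.71 and 10.68, by 1.02, but by 0.998 without DL replicate 2.

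Genes of neutrophil granules and surface had the lowest median of all lists with more than 1 measured gene. Of 8 measured, 5 were called lower and none higher (over all genes 4.06% lower), and 7 passed the FDR in the lower direction (35.3% of all genes). The median was -1.24 log2 units. PMAP-36, a cathelicidin with antibacterial activity, measured 8.14 and 8.15 in DL and 5.50 and 5.51 in DH, 6.24-fold lower (limma, adjusted p = 8.72e-06), and 1 DH array was above background. PR39, another cathelicidin of pig neutrophils, measured 8.65 and 8.63 in DL and 6.43 and 6.38 in DH, 4.70-fold lower. RETN, resistin, measured 9.46 and 9.45 in DL and 7.54 and 7.56 in DH, 3.74-fold lower, and a dimmer probe was at least 5.93-fold lower. LTF, the iron-binding lactoferrin, fell from 9.79 and 9.83 to 8.60 and 8.49.

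Groups did not overlap for any of the 8 neutrophil genes, as for 84.5% of all probes. NPG4, the protegrin 4 gene, differed by -0.94 and MMP9, a gelatinase, by -0.50, and PGLYRP1, which binds peptidoglycan, was the exception at 0.45. Cathelicidins and protegrins have similar leader sequences, and their probes may share signal. In TH minus TL the median of the list was 0.638, opposite in sign to that of Duroc pigs. PR39 and PMAP-36 were lower in TH than in TL too (-1.25 and -2.38), whereas LTF (1.29) and the brighter probe of RETN (0.75) were higher there. Averaged over both breeds, where slide and move balance, the median of the list was -0.461, with 2 genes lower and 1 higher.

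Interferon-stimulated genes were called in both directions. Of 17 measured, 2 fell and 2 rose, beside 4.06% and 3.34% of all genes. In this list 7 passed the FDR as higher and 8 as lower (36.0% and 35.3% of all genes). The median was 0.00 log2 units (-0.046 to 0.038 over other settings, and 0.356 averaged over both breeds). MX1, the dynamin-like GTPase that blocks influenza virus, measured 16.08 and 16.11 in DL and 14.63 and 14.68 in DH, 2.71-fold lower on each of 2 probes (limma, adjusted p = 8.18e-06). RSAD2, viperin, measured 12.28 and 12.29 in DL and 11.004 and 10.76 in DH, 2.65-fold lower. USP18, a protease that removes ISG15, differed by -0.41 at its brightest probe and was called lower on another (-1.28). GBP1 and GBP2, guanylate-binding GTPases, rose from 15.26 and 15.27 to 16.43 and 16.39 and from 12.90 and 12.88 to 13.97 and 14.06, 2.21-fold and 2.19-fold. Of the other probes with a name, 3 of 9 fell and 2 rose, beside 3.96% and 7.02% of all other probes. IFIT1, a sensor of viral RNA, fell from 13.19 and 13.23 to 11.89 and 11.91, ISG15, a ubiquitin-like modifier, from 15.86 and 15.82 to 14.74 and 14.84, and IFI44L by 1.01. CXCL9, a chemokine that draws T cells, rose from 8.35 and 8.33 to 10.89 and 10.84 (5.76-fold, adjusted p = 5.79e-06), and IDO1, which breaks down tryptophan, from 10.68 and 10.58 to 12.52 and 12.46 (3.63-fold). CXCL10, another T cell chemokine, differed by 0.42. All of these groups of arrays were apart, as for 84.5% of all probes and for each of the 3169 called. In Tibetan pigs MX1 and RSAD2 ran the other way, at 1.10 and 0.67 in TH minus TL.

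T and NK cell genes were mostly higher in DH. Of 15 measured, 2 rose (3.34% of all genes) and none fell. In this list 11 passed the FDR in the higher direction (36.0% of all genes), with a median of 0.646 log2 units. Beside GZMB, the adhesion molecule CD2 rose from 9.83 and 9.84 to 10.84 and 10.83, by 1.002, just past the limit, and by 0.997 without DL replicate 1. The subunits of the T cell receptor complex did not reach the 2-fold limit, with CD3D at 0.48, CD3E at 0.65 and CD3G at 0.25. The coreceptors CD4 and CD8A differed by 0.72 and 0.72, the checkpoint receptor CTLA4 by 0.74 and the death ligand FASLG by 0.81. CCR7 and IL7R, which mark naive and memory cells, lay the other way at -0.62 and -0.29. Among other probes, CD8B rose from 10.18 and 10.15 to 11.20 and 11.24 and CD5 by 1.03. The T cell markers summed above, CD3D, CD3E, CD3G and CD2, belong to this list, so their sum is no separate measure. The part of T cell number in these differences was not tested.

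Antigen presentation genes shifted by less. None of the 18 measured was called, but 17 lay above 0 and 14 passed the FDR as higher (36.0% of all genes), with a median of 0.256. TAP1, the peptide transporter, differed most, at 0.80, followed by SLA-DMB, a class II peptide editor, at 0.73. The class I and class II chains were closer to 0, from 0.07 for SLA-2 to 0.33 for SLA-DQB1, and as paralogs they may share signal between probes. None of the 6 B and plasma cell genes was called (median 0.026).

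Among macrophage and monocyte genes 2 of 16 fell, beside 4.06% of all genes. LYZ, lysozyme, fell from 17.44 and 17.44 to 15.91 and 15.93, 2.86-fold (limma, adjusted p = 7.18e-06), and FCGR1A, the high-affinity IgG receptor, from 12.51 and 12.54 to 10.87 and 10.96, 3.05-fold. The list as a whole lay slightly above 0, at a median of 0.212, with the scavenger receptor CD163 at 0.39, CD14 at 0.61 and SIGLEC1 at -0.81. The chitinase CHIT1, measured by an other probe, rose by 1.21. LYZ was also lower in TH than in TL, where the difference was -2.08.

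Cytokines and chemokines were spread around 0, with 1 of 42 higher, 1 lower (all genes 3.34% and 4.06%) and a median of 0.104. The fall was that of AMCF-II, a neutrophil-attracting chemokine also listed as CXCL6, from 6.84 and 6.83 to 4.94 and 4.85, at least 2.32-fold, as no DH array was above background. CXCL8, the main neutrophil chemokine, differed by -0.91, CCL2, which draws monocytes, by -0.80 at its brightest probe, TNF by 0.77 and IL10 by 0.84. A second CCL2 probe fell from 14.06 and 14.05 to 12.87 and 12.90, by 1.17 (limma, adjusted p = 1.50e-05). On other probes, CCL5 and the fractalkine receptor CX3CR1 rose by 1.13 and 1.20, and CXCL14 and the decoy receptor IL1R2 fell by 1.36 and 1.15. TRAF6 was the one call among 15 genes of the toll-like receptor pathway (median -0.183, and 0.271 averaged over both breeds), in which TLR4 differed by 0.51 and TLR3 by -0.80. No complement gene was called among 19 (median 0.061), where C4A at 0.99 and CFB at 0.82 came closest among genes that passed the FDR, and CFI, an inactivator of C3b, rose at least 4.43-fold on an other probe.

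The oxygen-sensing pathway itself differed little. None of the 3 genes of its list with a RefSeq-target probe and none of 4 with an other probe was called. The 3 were HIF1A, EPAS1 and ARNTL, a clock gene that the list also held and that differed by -0.39. Of these 3, 2 passed the FDR as lower, beside 35.3% of all genes. HIF1A measured 13.14 and 13.22 in DL and 12.87 and 12.93 in DH, a difference of -0.28 log2 units (limma, adjusted p = 0.00159). EPAS1 measured 13.89 and 13.90 in DL and 13.96 and 13.89 in DH, a difference of 0.03 (SE 0.028, adjusted p = 0.407), with overlapping groups. Of the enzymes that mark the alpha subunits for degradation, EGLN1 differed by -0.02, EGLN2 by 0.10 and EGLN3 by -0.50, and VHL by -0.20.

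Among 12 known hypoxia targets none was called, 5 passed the FDR as higher and 4 as lower, and the differences ran from -0.426 to 0.923 with a median of 0.03. With the 75th percentile scaling 1 of them was called higher, and likewise averaged over both breeds. The lipoprotein lipase inhibitor ANGPTL4 differed by 0.49. VEGFA, the main angiogenic growth factor, measured 11.95 and 11.98 in DL and 11.61 and 11.65 in DH, a difference of -0.33, and the glycolytic enzymes LDHA and PGK1 differed by 0.02 and 0.18. The list of 12 glycolysis genes had no call and a median of 0.143, with ENO3, the muscle enolase, at 0.97 and TPI1 at 0.69.

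In the lists of vascular genes, all but 1 gene lay within the 2-fold limit. PRKG1, RGS5, AQP1 and F2R, called and given in other paragraphs, were not in these lists. No call was made among 18 vasoactive ligands, receptors and enzymes (median -0.056, and 0.033 with the arrays scaled to their 75th percentile). EDN1, the vasoconstrictor endothelin, differed by 0.39 and its receptor EDNRA by -0.77, which measured 10.20 and 10.16 in DL and 9.44 and 9.38 in DH. NOS3, the endothelial nitric oxide synthase, differed by 0.48, and ACE of the angiotensin system by -0.04. Of 18 endothelial and angiogenic genes 1 fell (4.06% of all genes) and 11 passed the FDR as lower (35.3% of all genes), with a median of -0.218. The fall was that of ANGPT1, the ligand that keeps vessels quiescent through the TEK receptor, from 12.57 and 12.55 to 10.63 and 10.65, 3.79-fold (limma, adjusted p = 9.33e-06). Its antagonist ANGPT2 differed by -0.88, the platelet-binding selectin SELP by -0.98, the transcription factor KLF4 by -0.80 and, on other probes, KDR and TEK by -0.78 and -0.48. PECAM1 and CDH5 differed by -0.22 and -0.28, and their sum was 17.28 to 17.32 in DL and 17.03 to 17.06 in DH. The part of that sum in the ANGPT1 difference was not tested. No smooth muscle contractile gene was called among 7 (median -0.101, and 0.031 with the 75th percentile scaling).

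Surfactant genes lay slightly higher in DH. None of 6 alveolar type II genes was called, all lay above 0 and 5 passed the FDR as higher (36.0% of all genes), with a median of 0.527. SFTPA1 measured 13.23 and 13.21 in DL and 13.78 and 13.77 in DH, a difference of 0.56, SFTPB differed by 0.67 and SFTPD by 0.50, while SFTPC, at 18.89 and 18.87 in DL and 18.90 and 19.05 in DH, differed by 0.09 with an adjusted p of 0.167. Of 12 alveolar type I, water and ion transport genes 2 fell, beside 4.06% of all genes. AQP4, a water channel of airway epithelium, measured 10.99 and 11.03 in DL and 9.31 and 9.37 in DH, 3.19-fold lower (limma, adjusted p = 1.08e-05). AQP1, the water channel of endothelium and red cells, measured 9.59 and 9.56 in DL and 8.38 and 8.37 in DH, 2.31-fold lower. AQP3 and AQP5 differed by -0.72 and -0.31. AQP9, an aquaglyceroporin outside the list, measured 4.96 and 4.74 in DL and 6.38 and 6.58 in DH and was at least 1.73-fold higher in DH, with no DL array above background. The falls of AQP4 and AQP1 were also present in Tibetan pigs, where TH minus TL was -1.62 for AQP4 and -1.48 for AQP1. CA4, the carbonic anhydrase on the surface of lung capillaries, rose from 15.48 and 15.49 to 16.50 and 16.52 on an other probe and was higher in TH than in TL as well (1.08).

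Of 8 genes of airway secretion and mucosal defense, BPIFA1 rose and LTF and LYZ fell. Both falls were also counted above, in the neutrophil and macrophage lists. Over all genes 3.34% rose and 4.06% fell. PIGR, which carries IgA across epithelium, differed by 0.95. The part of airway tissue in each sample was not measured, since BPIFA1 was the one secretory marker with a RefSeq-target probe.

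Genes of striated muscle did not move as one. Of 14 measured, 5 rose and 1 fell, beside 3.34% and 4.06% of all genes (median 0.28). The fast myosin heavy chains MYH1 and MYH2 rose from 7.89 and 7.80 to 8.79 and 9.02 and from 9.18 and 9.23 to 10.45 and 10.51, and MYH4, at 5.36 and 5.28 in DL and 6.29 and 6.38 in DH, was at least 1.56-fold higher, with no DL array above background. CKM, the muscle creatine kinase, rose from 10.98 and 11.04 to 12.01 and 12.06. In contrast ACTA1, skeletal alpha actin, fell from 7.17 and 7.03 to 5.35 and 5.46, with 1 DH array above background. Without a single array MYH1 (0.941 without DH replicate 2), MYH4 (0.97 without DL replicate 2 or DH replicate 2) and CKM (0.988 without DL replicate 1 and 0.997 without DH replicate 2) were no longer called. Of 8 measured skeletal muscle markers 4 were above background on all 4 arrays, and their summed level was 11.82 to 11.84 in DL and 12.71 to 12.79 in DH. The myosin heavy chains are paralogs whose probes may share signal.

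Of the genes known from fat cells, 2 rose. PLIN1, the coat protein of the fat droplet, measured 5.40 and 5.26 in DL and 7.23 and 7.07 in DH and was at least 2.75-fold higher in DH (limma, adjusted p = 1.25e-04), and ADIPOQ, adiponectin, measured 5.05 and 4.32 in DL and 6.17 and 6.07 in DH and was at least 1.35-fold higher. Neither was above background on a DL array. These were the 2 calls among 32 genes of fat storage and lipid uptake (median 0.189), beside 3.34% of all genes called higher. The list ran from -2.663, a difference that did not pass the FDR, to 1.82, with 20 genes above 0 and 12 below. FABP4 differed by 0.28, LEP by 0.20 and the droplet protein PLIN2 by 0.45. The summed level of the 4 fat markers was 11.97 to 11.98 in DL and 12.36 to 12.39 in DH, and the part of adherent fat or muscle in the samples was not tested.

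Enzymes of xenobiotic metabolism were called in both directions, 4 of 23 rising and 1 falling (median -0.121). Over all genes 3.34% rose and 4.06% fell. CYP1A1, the target of the aryl hydrocarbon receptor, measured 14.09 and 14.08 in DL and 12.49 and 12.47 in DH, 3.05-fold lower (limma, adjusted p = 6.25e-06). On the same probe each TL array measured 8.27. CYP2E1, which oxidizes ethanol and ketones, rose from 9.55 and 9.51 to 10.74 and 10.72 and CYP3A29 from 10.13 and 10.17 to 11.31 and 11.45. CYP3A46 measured 5.50 and 5.51 in DL and 7.30 and 7.38 in DH and was at least 3.14-fold higher, with no DL array above background, and its sequence is close to that of CYP3A29. CES1, a carboxylesterase, rose from 10.33 and 10.31 to 11.48 and 11.49. On an other probe ADH1C, an alcohol dehydrogenase, fell from 14.44 and 14.49 to 10.93 and 10.92, 11.6-fold (adjusted p = 5.57e-06), and TH minus TL was -2.33.

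Proliferation genes lay higher in DH. CDC20, which activates the anaphase complex, rose from 9.81 and 9.81 to 11.16 and 11.18, 2.56-fold (limma, adjusted p = 2.35e-04). It was the one call among 13 (3.34% of all genes were called higher). A further 9 passed the FDR as higher (36.0% of all genes did), and the median was 0.652. MCM3 of the replicative helicase differed by 1.00, just under the limit, TOP2A by 0.90, BIRC5 by 0.79 and CCNB1 by 0.78. The cyclin-dependent kinase inhibitor CDKN1B and the G1 cyclin CCND2 lay lower, at -0.55 and -0.35. The list was higher in TH than in TL too, at a median of 1.102.

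No extracellular matrix gene was called among 12 at its brightest probe, and 8 passed the FDR as lower (35.3% of all genes), with a median of -0.329, among them SPARC at -0.77, FBN1, fibrillin, at -0.73 and ITGAV at -0.68. A second SPARC probe was called lower, at 16.78 and 16.83 in DL and 15.71 and 15.78 in DH (-1.06, adjusted p = 1.79e-05), and TH minus TL was 1.60. Of 12 matrix metalloproteinases and inhibitors, MMP1, interstitial collagenase, fell from 8.21 and 8.20 to 6.46 and 6.56, and MMP20 was at least 1.73-fold higher at low levels, 5.20 and 4.78 in DL and 6.37 and 6.59 in DH. The elastase MMP12 of macrophages differed by 0.91, and the aggrecanase ADAMTS5 fell from 10.36 and 10.38 to 8.54 and 8.54 on an other probe. Of 17 TGF-beta and BMP genes 11 passed the FDR as lower, beside 35.3% of all genes (median -0.4). BMPR1B, a BMP receptor, fell from 9.47 and 9.48 to 8.15 and 8.25, BMP4 and the BMP target ID2 differed by -0.73 and -0.75, and on other probes SMAD5 fell by 1.60 and BMP5 by 1.10. GHR, the growth hormone receptor, was the one call among 12 genes of the IGF axis, and fell from 7.75 and 7.76 to 6.71 and 6.45 (2.27-fold). The calls of the metalloproteinase, TGF-beta and IGF lists stood beside 3.34% of all genes called higher and 4.06% called lower. IGF1 itself differed by 0.05. Averaged over both breeds, the medians of the matrix and TGF-beta lists were -0.025 and -0.049.

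Over all lists, 8 genes that were not called at their brightest probe had another RefSeq-target probe that was called, 2 higher and 6 lower. Ribosomal, respiratory and antioxidant genes differed little. None of 25 ribosomal protein genes was called, and they ranged from -0.241 to 0.189 with a median of -0.01 (-0.036 to 0.2 over other settings). None of 12 genes of oxidative phosphorylation (median 0.079) and none of 16 antioxidant genes (median -0.087, reaching 0.072 in other settings) was called, HMOX1 differing by 0.14 and the catalase gene CAT by -0.23.

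The largest differences of other probes exceeded those of RefSeq-target probes. Their names came from tables of the study, which were used in part and were themselves partly chosen on these arrays. F2R, the thrombin receptor, fell from 11.98 and 11.997 in DL to 7.38 and 7.40 in DH, 24.3-fold (limma, adjusted p = 1.96e-06), but another F2R probe differed by -0.09. AP2M1, a subunit of the clathrin adaptor, measured 3.81 and 3.98 in DL and 9.18 and 9.20 in DH and was at least 11.3-fold higher. MAST4, a microtubule-associated kinase, measured 3.02 and 3.005 in DL and 9.12 and 9.17 in DH (at least 11.0-fold higher), and another MAST4 probe differed by 0.57. KIF1C, a kinesin, measured 3.06 and 3.04 in DL and 8.06 and 8.10 in DH (at least 5.24-fold higher). TFF1, a trefoil peptide of mucus, measured 9.33 and 9.31 in DL and 5.16 and 5.28 in DH (at least 12.9-fold lower), and OLIG1, known from oligodendrocytes, 7.34 and 7.01 in DL and 3.24 and 3.06 in DH (at least 2.93-fold lower). Arrays of a group lay within 0.33 log2 units at these 6 probes, so for F2R and MAST4 probes of the same gene disagreed by more than replicates did. Among the 470 genes with more than 1 RefSeq-target probe, 47 had a called probe, 9 of them on all their probes, and none was called in both directions.

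Tibetan pigs gave the same altitude contrast on the opposite arrangement of slides and moves. Over RefSeq-target probes, 36 of the 84 probes higher in DH (42.9%) were also called higher in TH than in TL, against 22.3% of all RefSeq-target probes, and 7 were called lower (all 4.35%), with a median of 0.62 (all 0.35). Of the 109 lower in DH, 17 (15.6%) were called lower in TH, and 26 (23.9%) higher. Other probes behaved differently. Of the 1903 higher in DH, 1078 (56.6%) were called lower in TH than in TL, against 17.1% of all other probes, and 165 (8.67%) higher (all 16.2%), with a median of -1.31 log2 units (all 0.15). Those 1078 probes were high on the slide that carried DH and TL, and whether this goes with the slide or with the moved pigs cannot be told apart. The part of the brighter TL arrays in it was not tested. Of the 1073 other probes lower in DH, 206 (19.2%) were called higher and 147 (13.7%) lower in TH.

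The difference between the breeds was tested as DH minus DL less TH minus TL, a contrast that equals that of the slides and of moved against home pigs. It was called for 11293 of all probes (37.7%), for 801 RefSeq-target probes (28.1%) and for 10492 other probes (38.7%). The mean altitude effect of both breeds balances slide and move, and the Duroc difference is one of the 2 values averaged. Among RefSeq-target probes, 220 were called higher (7.72%) and 66 lower (2.32%) by this mean, and these included 50 of the 84 and 35 of the 109 Duroc calls. Of the other probes called in Duroc pigs, 329 of 1903 and 292 of 1073 were included, where 4.26% of all other probes were called higher and 5.55% lower by the mean.

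Named genes that moved in the same direction in both breeds were chosen for description after their values were seen. Of the genes higher in DH, 31 were also called higher in TH, and of those lower in DH, 16 were also called lower. Of all RefSeq-target probes 22.3% were called higher in TH and 4.35% lower. Beside ZP3, PSP-I, FABP1, RGS5 and CYP2E1 given above, the increases included genes of the cell cycle, with the centromere protein CENPM at 1.12 in Duroc and 2.77 in Tibetan pigs, the histone chaperone ASF1B at 1.09 and 1.48, and CDCA7, at its brighter probe, at 1.10 and 2.18. DUOX1, an oxidase that makes hydrogen peroxide at the airway surface, differed by 1.17 and 1.27, and PON3, a paraoxonase, by 1.71 and 1.49. The decreases included AQP1, AQP4, LYZ, PR39, PMAP-36, MCT7, HRH4 and GHR. MFGE8, which helps phagocytes take up dying cells, differed by -1.38 and -1.45, and STC1, a secreted glycoprotein, by -1.14 and -1.16.

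Opposite directions were called in both breeds for 3 genes higher and 21 genes lower in DH. Over RefSeq-target probes, named or not, 7 of 84 increases (8.33%) and 26 of 109 decreases (23.9%) were opposite. Of all RefSeq-target probes 4.35% were called lower in TH and 22.3% higher, so the share among decreases was near that of all probes. TH minus TL was -1.42 and -1.15 on the probes of BPIFA1, -1.65 for SMPX and -1.01 for CES1. Among the decreases, CYP1A1 was higher in TH by 1.10, MX1 by 1.10, LTF by 1.29 and the protease inhibitor gene PI3 by 4.50. ALOX15 differed by -0.37 in Tibetan pigs, and CHRM1 by 0.53.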

How the data were processed

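Lung RNA of 8 pigs was measured on 1-color Agilent porcine arrays. The authors extracted spot intensity with Feature Extraction (10.7.3.1 per the file headers and methods, 9.1 per the submitters' processing notes) and deposited a table of log2 values which, as the methods state, they had normalized by RMA. All its columns share 1 distribution with a median of 7.40, and their ranks match those of the deposited processed intensity. The exact steps are not given in the sources used here. These log2 values were analysed, and the raw intensity served for alternatives.

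Groups followed the sample labels. limma 3.58.1 in R 4.3.3 fitted a mean for each of the 4 groups over all 8 arrays, without covariates, and tested DH minus DL with moderated variances (two-sided, Benjamini-Hochberg over 29964 probes). A call needed an adjusted p under 0.05 and a difference of at least 1 log2 unit. This departs from the methods' FDR of 0.0001, which was run as an alternative. Adjusted p-values throughout are of this fit. The number of arrays limits the precision. The script was tested on simulated data. Counts and gene lists were tabulated in Python 3.11.15, using pandas 2.3.3 on top of numpy 2.4.6.

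RefSeq-target probes were named through their accession in a RefSeq gene table (Sscrofa11.1), which gave a symbol for 2682 of 3239, and other probes (2811 of those tested) through the study's tables. Named genes were the 12 largest increases and decreases among called RefSeq-target probes above background on all 4 Duroc arrays with groups apart, the 4 largest per direction absent from one group, called members of gene lists (or the largest difference where none was called), and the 3 largest other probes per direction. A listed gene was taken at its brightest RefSeq-target probe. Members and lists were chosen with earlier results of these data known. Genes at the edges of the lists and those shared by both breeds were named after their values were seen.

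Alternatives were other signals, scalings and filters, other models, a replicate block, a slide block, other thresholds and leaving out each array. Probe sequences and coordinates were not used here. Results for some genes are not reported here.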

Additional observations from a re-analysis of the deposited data

Results flagged for a closer look

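Of 74 named probes, 52 were measured in all 4 groups. At 34 of these the altitude difference of Duroc pigs departed from that of Tibetan pigs by at least 2-fold (adjusted p under 0.05 in limma). Over all probes this held for 37.7%, and over RefSeq-target probes for 28.1%. Most named probes were chosen for a large or called DH minus DL, which is itself part of the contrast. The choice thus favours a departure, and the 34 of 52 cannot be weighed against these shares. The 20 named probes that departed by at least 4-fold are given here as DH minus DL less TH minus TL in log2 units. This contrast is the same as that of the slides and of moved against home pigs, which cannot be told apart from a difference of the breeds.

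The departure was positive for 6 probes. It was 3.36 for ALOX15 and 3.29 for SMPX, 3.13 and 2.90 for the brighter and dimmer probes of BPIFA1, 2.17 for CES1 and 2.05 for GZMB. For ALOX15 the Tibetan arrays measured 11.50 and 11.45 in TL and 11.10 and 11.12 in TH, between the DL and DH arrays. For GZMB, TH minus TL was -0.33.

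A negative departure was found for 14 probes. Of the immune genes it was -2.08 for RSAD2, -2.15 for TRAF6, -2.33 for the dimmer probe of KIT, -2.54 for MX1, -2.56 for LTF and -2.65 for RETN. Of the other genes it was -2.58 for NDN, -2.58 for RGS5, -2.67 for PON1, -2.71 for CYP1A1, -2.98 for F2R, -3.11 for MGAT4C, -3.30 for CHRM1 and -3.44 for CELA2A. RGS5 was higher at high altitude in both breeds, and more so in Tibetan pigs (4.42 against 1.83). F2R was lower at high altitude in both.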

How the results depend on the processing

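Counts are given as higher and lower in DH. Signals less local background with a normexp offset of 50 gave 371 and 269 calls (RefSeq-target 34 and 35, other 337 and 234, difference between breeds 6382), of which 631 were among the 3169 calls. Testing only probes above background on all 4 Duroc arrays gave 1204 and 704 (other 1145 and 621), as fewer probes were tested. An adjusted p under 0.0001 without a minimum fold gave 2532 and 1959 (RefSeq-target 243 and 228, other 2289 and 1731), and one under 0.05 gave 9922 and 10368 (RefSeq-target 960 and 1058, other 8962 and 9310, difference between breeds 23293). With slide as a block, which turns the value into the mean altitude effect of both breeds, 1376 and 1570 were called (RefSeq-target 220 and 66, other 1156 and 1504), of which 840 (26.5%) were among the 3169. The share of higher calls was then 46.7% against 62.7%. Scaling to the 75th percentile gave 2321 and 1079 (RefSeq-target 110 and 105). Leaving out 1 array gave 1923 to 2137 higher and 1111 to 1484 lower calls (RefSeq-target 80 to 89 and up to 132, other 1842 to 2048 and 1004 to 1352, difference between breeds 11015 to 11576). Of 74 named probes, 3 turned in direction, all under the slide block, with SMPX at -0.005, TFF1 at 0.502 and LTF at 0.01, and 27 lost their call there. With the normexp offset of 50, 25 lost their call. Replicate numbers did not pair the arrays (correlation of deviations between DL and DH 0.0189), and a replicate block gave 1970 and 1153 (RefSeq-target 84 and 109, other 1886 and 1044, difference between breeds 11257). The difference between breeds has no value with the Duroc arrays alone or with the slide block. Except where construction shows it, the cause was not tested. Signal over background limits the dim probes, whose share of calls was the highest.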

Other observations

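Genes of stress and daily rhythm were mostly within the 2-fold limit. No gene of the heat shock list was called among 9 at its brightest probe (median -0.065, and 0.132 at its highest in other settings). The brightest probe of HSP70.2, the stress-induced heat shock protein, measured 16.13 and 16.19 in DL and 15.20 and 15.24 in DH, a difference of -0.94 log2 units, and TH minus TL was -2.94. A dimmer HSP70.2 probe was called lower, at -1.30 in Duroc and -3.76 in Tibetan pigs. HSPA1L differed by -0.81, and CANX, a chaperone of the endoplasmic reticulum, rose by 1.59 on an other probe. None of 7 immediate early genes was called at its brightest probe (median -0.189), where BTG2, an antiproliferative gene, differed by -0.95 at its brightest probe and NR4A3, an orphan nuclear receptor, by 0.99, against -2.18 in Tibetan pigs. A second BTG2 probe was called lower, at 15.38 and 15.38 in DL and 14.33 and 14.31 in DH (limma, adjusted p = 1.10e-05).

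Of the glucocorticoid response genes none of 5 was called by RefSeq-target probes (median 0.205), and FKBP5, the cochaperone that glucocorticoids induce, rose from 11.11 and 11.15 to 12.33 and 12.33 on an other probe, while TH minus TL was -3.88. The clock gene ARNTL differed by -0.39 and CRY2, a repressor of the clock, rose by 1.32 on an other probe, with -2.93 in TH minus TL. Among 8 erythroid and iron genes none was called (median 0.116). HAMP, the hormone hepcidin that limits iron uptake, differed by -0.86, and HPX, which binds heme, by 0.67. The one measured ciliated gene, SPAG6, differed by -0.79.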
